A study of Mus musculus with 21 samples.

Results

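The AMPA receptor genes examined here were named by symbol and are the 4 pore subunits Gria1, Gria2, Gria3 and Gria4 and the auxiliary proteins Cacng2, Cacng3, Cacng8 and Cnih2. Of these 8 genes, 6 were among the 5544 genes in the table of cortical expression values, and Cacng3 and Cacng8 were not analysed here. The samples were cortex of wild-type male C57BL/6 mice aged 12 weeks, taken 24 h after high-frequency head impact (HF-HI, 11 libraries) or after sham treatment (10 libraries). HF-HI mice received repeated closed-head impacts under isoflurane on successive days, and the sham group went through the daily procedure, isoflurane included, without being struck. The labels name no transgene, deletion or drug in either group, and the genotype is taken from the column headers. The labels number the libraries but do not say that each came from its own mouse, so p-values measure the spread between these libraries.

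AMPA receptors are tetramers of GluA1 to GluA4, encoded by Gria1 to Gria4, and carry most of the fast excitatory current at cortical synapses. Receptors that contain edited GluA2 pass little calcium, because the adenosine deaminase Adarb1 recodes one glutamine codon of the pore loop to arginine in the Gria2 RNA, whereas receptors without GluA2 are permeable to calcium. Transmembrane AMPA receptor regulatory proteins such as stargazin (Cacng2) and the cornichons (Cnih2, Cnih3) join the pore, carry it to the surface and slow its closing.

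The 4 pore genes are close relatives, and the stretch around the edited position is shown because it marks what sets GluA2 apart and how alike the genes are there. The following are 60-base stretches of the GENCODE transcripts on GRCm38 (mm10), 5′ to 3′, with the glutamine codon at the glutamine/arginine site in capitals. All lie in coding exons, exon 11 of 16 for Gria1 (chr11:57243058-57243117, plus strand), Gria2 (chr3:80706890-80706949, minus strand) and Gria3 (chrX:41610229-41610288, plus strand), and exon 12 of 17 for Gria4 (chr9:4464116-4464175, minus strand).
Gria1: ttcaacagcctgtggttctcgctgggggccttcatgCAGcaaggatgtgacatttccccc
Gria2: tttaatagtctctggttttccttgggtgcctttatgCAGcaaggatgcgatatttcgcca
Gria3: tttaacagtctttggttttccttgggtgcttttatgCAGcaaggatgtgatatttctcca
Gria4: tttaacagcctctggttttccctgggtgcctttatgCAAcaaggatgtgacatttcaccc
The genome encodes glutamine at this position in all 4 genes, by CAG in Gria1, Gria2 and Gria3 and by CAA in Gria4. Gria2 and Gria3 had the same base at 55 of the 60 positions and Gria1 and Gria2 at 47. Over whole transcripts the longest run of identical bases that a pair of pore genes shared was 41, between Gria2 and Gria4, and the other pairs shared at most 17 to 29. The expression values are sums over a gene and hold no information on how much of the Gria2 RNA was edited.

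Expression is given as the variance-stabilized values that the authors deposited, which are on a log2 scale and normalized for library size. Relative depth, judged from the spacing of the values, ran from 0.580 to 1.26 of the median library in sham and from 0.548 to 1.63 in HF-HI. The libraries also differed in how their values followed the exonic GC content of the genes. This GC slope ran from -0.231 to 0.0058 log2 units per 10% GC in sham and from -0.0385 to 0.161 in HF-HI. The mitochondrial ribosomal RNA mt-Rnr1 lay between 11.57 and 15.18 in sham and between 15.86 and 17.2 in HF-HI with no overlap, so what moves with it and the treatment cannot be told apart. Each member is therefore described as deposited and again after the GC trend of each library was removed, a step that also removes any biological difference that follows GC content.

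All 6 measured AMPA receptor genes differed between HF-HI and sham by limma with Benjamini-Hochberg adjustment over all genes. Gria1 and both auxiliary genes were higher, and Gria2, Gria3 and Gria4 were lower. Differences were common in this table, as 66.3% of its 5544 genes passed the same threshold of 0.05, 32.6% higher and 33.6% lower. The share among genes outside the table is unknown. The median absolute log2 difference was 0.30 over the 6 genes and 0.16 over all genes. The medians of the signed difference were 0.10 and -0.0086.

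**Figure D1:**
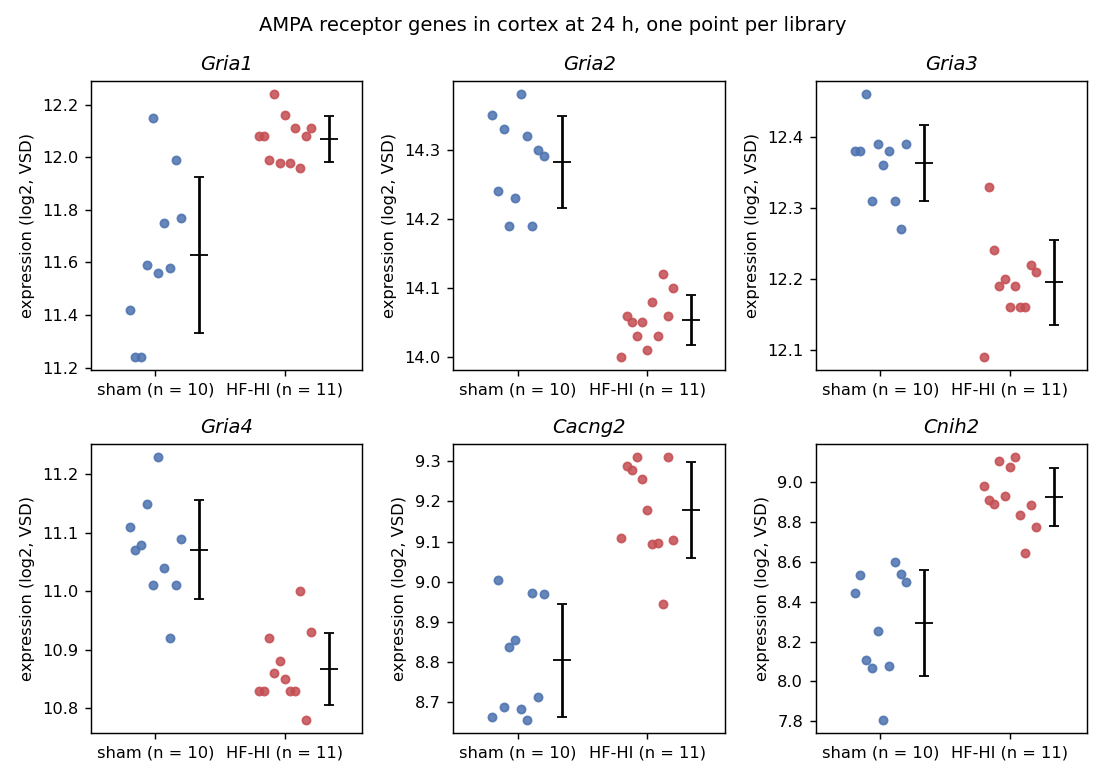
Expression of the 6 genes in each library (y axis, variance-stabilized log2 value; each panel has its own range, which does not start at 0). Blue points are the 10 sham and red points the 11 HF-HI libraries, black bars are the mean ± SD, and the ranges of the groups do not overlap for Gria2 and Cnih2.

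Gria1 (ENSMUSG00000020524, chr11:57011387-57330244, plus strand) encodes GluA1, the subunit whose insertion into synapses accompanies potentiation. Its lowest, median and highest values were 11.24, 11.58 and 12.15 in sham and 11.96, 12.08 and 12.24 in HF-HI. Most sham libraries lay below every HF-HI library, but 2 of them, replicates 5 and 9 at 12.15 and 11.99, fell inside the HF-HI range. The mean rose from 11.63 ± 0.296 (SD, n = 10) to 12.07 ± 0.0857 (SD, n = 11), a log2 difference of 0.44 (standard error 0.0855, limma adjusted p = 1.07e-04) or 1.36-fold. Sham libraries were far more spread than HF-HI libraries for this gene. The ratio of the SDs was 3.45, larger than in 99.2% of all genes, where the median ratio was 1.19.

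Gria2 (ENSMUSG00000033981, chr3:80681450-80802835, minus strand) encodes GluA2, the subunit whose edited form limits calcium entry, and had the highest level of the pore genes. Its values were 14.19, 14.30 and 14.38 (lowest, median, highest) in sham and 14.00, 14.05 and 14.12 in HF-HI. Every HF-HI library lay below every sham library. The mean fell from 14.28 ± 0.0661 (SD, n = 10) to 14.05 ± 0.0366 (SD, n = 11), a log2 difference of -0.23 (standard error 0.0267, limma adjusted p = 1.93e-07), which left 0.855 of the sham level.

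Gria3 (ENSMUSG00000001986, chrX:41400854-41678601, plus strand) encodes GluA3, which in pyramidal cells mostly pairs with GluA2. It ran over 12.27, 12.38 and 12.46 (lowest, median, highest) in sham and over 12.09, 12.19 and 12.33 in HF-HI. All but 1 of the 11 HF-HI libraries were below the whole sham range. The log2 difference was -0.17 (standard error 0.0287, limma adjusted p = 2.30e-05), or 0.890 of the sham level.

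Gria4 (ENSMUSG00000025892, chr9:4417896-4796234, minus strand) encodes GluA4, which in adult cortex is best known from fast-spiking interneurons. Its values were 10.92, 11.07 and 11.23 in sham and 10.78, 10.85 and 11 in HF-HI, again as lowest, median and highest. The groups overlapped at the edge, with 9 of 11 HF-HI libraries below all sham libraries. The log2 difference was -0.20 (standard error 0.0342, limma adjusted p = 1.88e-05), or 0.868 of the sham level.

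Cacng2 (ENSMUSG00000019146, chr15:77991748-78120028, minus strand) encodes stargazin, the founding transmembrane regulator of AMPA receptors, which ties them to the scaffold PSD-95. It ran over 8.66, 8.78 and 9.01 (lowest, median, highest) in sham and over 8.94, 9.18 and 9.31 in HF-HI, and 10 of 11 HF-HI libraries were above all sham libraries. The mean rose from 8.80 ± 0.140 (SD, n = 10) to 9.18 ± 0.119 (SD, n = 11), a log2 difference of 0.38 (standard error 0.0545, limma adjusted p = 3.28e-06) or 1.30-fold.

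Cnih2 (ENSMUSG00000024873, chr19:5092868-5098521, minus strand) encodes cornichon-2, which escorts AMPA receptors out of the endoplasmic reticulum and stays with them at the synapse. Its values were 7.81, 8.35 and 8.60 (lowest, median, highest) in sham and 8.64, 8.91 and 9.13 in HF-HI. No HF-HI library fell to the highest sham value, although the gap between the groups was narrow. The mean rose from 8.29 ± 0.268 (SD, n = 10) to 8.92 ± 0.145 (SD, n = 11), a log2 difference of 0.63 (standard error 0.0859, limma adjusted p = 1.38e-06) or 1.55-fold, the largest of the 6. Gria2 and Cnih2 were thus the 2 of 6 genes whose group ranges did not overlap, where 13.5% of all genes had such ranges.

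Levels of different genes were compared per kilobase of exon, on the log2 scale. In sham the order was Gria2 (10.32 ± 0.0661), Gria3 (9.06 ± 0.0538), Gria1 (9.04 ± 0.296), Gria4 (8.42 ± 0.0859), Cnih2 (7.84 ± 0.268) and Cacng2 (6.34 ± 0.140; SD, n = 10 for each). Gria3 and Gria1 lay within the spread of Gria1 in sham. In HF-HI, Gria1 was second at 9.47 ± 0.0857 and above Gria3 at 8.89 ± 0.0608, and Cnih2 at 8.47 ± 0.145 was above Gria4 at 8.21 ± 0.0609 (SD, n = 11 for each), with overlapping ranges for this last pair. This order depended on the length used. Per kilobase of the longest transcript, Gria3 remained above Gria1 in HF-HI (9.81 against 9.60), while Cnih2 and Gria4 lay within the spread of Cnih2.

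The sum of the pore genes and their shares of it were computed from the values as deposited only, not with the GC trend removed. The mean share of Gria1 rose, and those of Gria2, Gria3 and Gria4 fell. The sum of the 4 levels per kilobase went from 11.39 ± 0.0637 to 11.33 ± 0.0259 on the log2 scale (SD, n = 10 sham and 11 HF-HI), and from 11.93 ± 0.0540 to 11.84 ± 0.0264 per kilobase of the longest transcript. Gria2 made up 47.6% ± 2.10 of that sum in sham and 42.5% ± 1.02 in HF-HI (SD). Gria1 made up 19.8% ± 3.51 in sham, between 15.2% and 26.3% in single libraries, and 27.6% ± 1.49 in HF-HI, between 25.4% and 30.2%. The mean shares of Gria3 went from 19.9% ± 1.11 to 18.4% ± 0.665 and those of Gria4 from 12.7% ± 0.860 to 11.5% ± 0.476. With the longest transcript as length, the mean share of Gria1 was 14.8% in sham and 21.2% in HF-HI, and that of Gria2 was 49.1% and 44.8%. These are shares of RNA in cortical tissue and not of receptor protein.

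**Figure D2:**
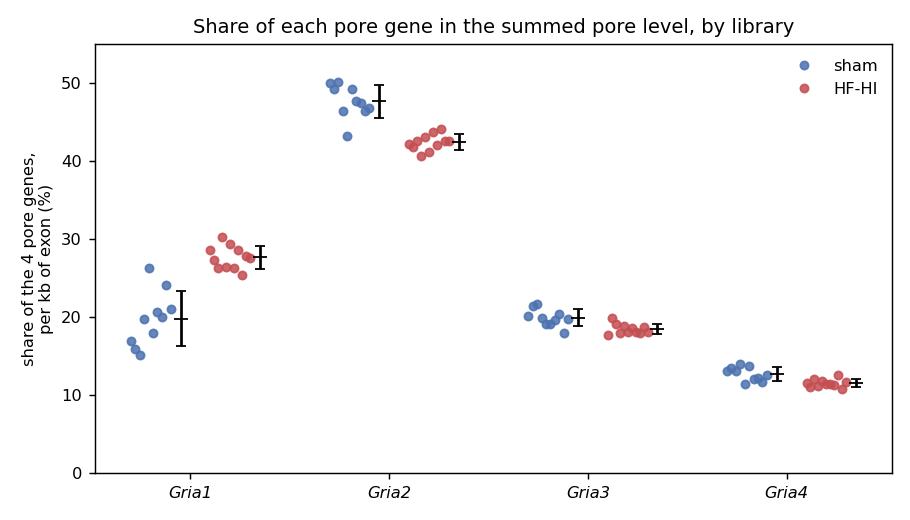
Share of each pore gene in the summed level of the 4 pore genes (y axis, percent, per kilobase of exon) in each sham (blue) and HF-HI (red) library, with mean ± SD in black. The Gria2 share was 47.6% in sham and 42.5% in HF-HI on average, and the Gria1 share 19.8% and 27.6%.

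A difference between a pair of genes within a library is unaffected by any scaling of the whole library, so the balance of subunits was examined in this form. Gria1 minus Gria2 was -3.09, -2.61 and -2.08 (lowest, median, highest) in sham and -2.16, -1.98 and -1.79 in HF-HI. The groups overlapped only through sham replicate 5 at -2.08, which lay among the lowest HF-HI libraries, replicates 5, 7 and 9 at -2.08, -2.10 and -2.16. The mean moved from -2.65 ± 0.313 (SD, n = 10) to -1.99 ± 0.110 (SD, n = 11), a change of 0.67 (standard error 0.104) in favour of Gria1. This is a 1.59-fold rise of the ratio of Gria1 to Gria2 (two-sided permutation test, p = 4e-05, adjusted over 15 pairs 8.57e-05). With the GC trend removed the change was 0.49 (permutation test, adjusted p = 1.29e-04). Gria1 also rose relative to Gria3, by 0.61, and relative to Gria4, by 0.64.

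Of all 15 pairs among the 6 genes, 10 changed by the permutation test, and 4 of these had group ranges without overlap. Except for Cacng2 minus Cnih2, each of the 10 set a gene that was higher in HF-HI against one that was lower. Such pairs largely restate the differences of single genes, and 66.3% of all genes in the table passed singly. Pairs of other genes were not examined, so the share that would change over the whole table is unknown. No change of balance among the 3 falling pore genes was past the threshold. Gria2 minus Gria3 changed by -0.058 (standard error 0.0282, permutation test, adjusted p = 0.0732), Gria2 minus Gria4 by -0.022 (0.0276, adjusted p = 0.460, permutation test) and Gria3 minus Gria4 by 0.036 (0.0391, adjusted p = 0.430, permutation test). The change of Gria1 relative to the auxiliary genes was also not past the threshold, at 0.065 against Cacng2 (standard error 0.110, permutation test, adjusted p = 0.558) and -0.19 against Cnih2 (0.129, adjusted p = 0.176, permutation test). A p above the threshold does not show that a pair kept its balance.

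The 3 falling pore genes and both auxiliary genes also moved apart. Gria2 minus Cnih2 went from 5.99 ± 0.30 to 5.13 ± 0.171, a change of -0.86, and Gria2 minus Cacng2 from 5.48 ± 0.195 to 4.88 ± 0.138, a change of -0.60 (SD, n = 10 and 11). Gria3 changed by -0.80 relative to Cnih2 and by -0.54 relative to Cacng2. These are the 4 pairs whose ranges did not overlap. Gria4 changed by -0.83 and -0.58 against the same genes, with a narrow overlap. The auxiliary genes also parted from each other, Cacng2 minus Cnih2 changing by -0.26 (standard error 0.0815, permutation test, adjusted p = 0.00681), a change that was 0.0064 once the GC trend was removed (permutation test, adjusted p = 0.923). The other 9 of the 10 pairs were past the threshold both ways, and all 9 were smaller with the GC trend removed. Gria1 then changed by 0.49, 0.46 and 0.54 relative to Gria2, Gria3 and Gria4. Gria2, Gria3 and Gria4 then changed by -0.37, -0.34 and -0.42 relative to Cnih2, and by -0.37, -0.35 and -0.43 relative to Cacng2.

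**Figure D3:**
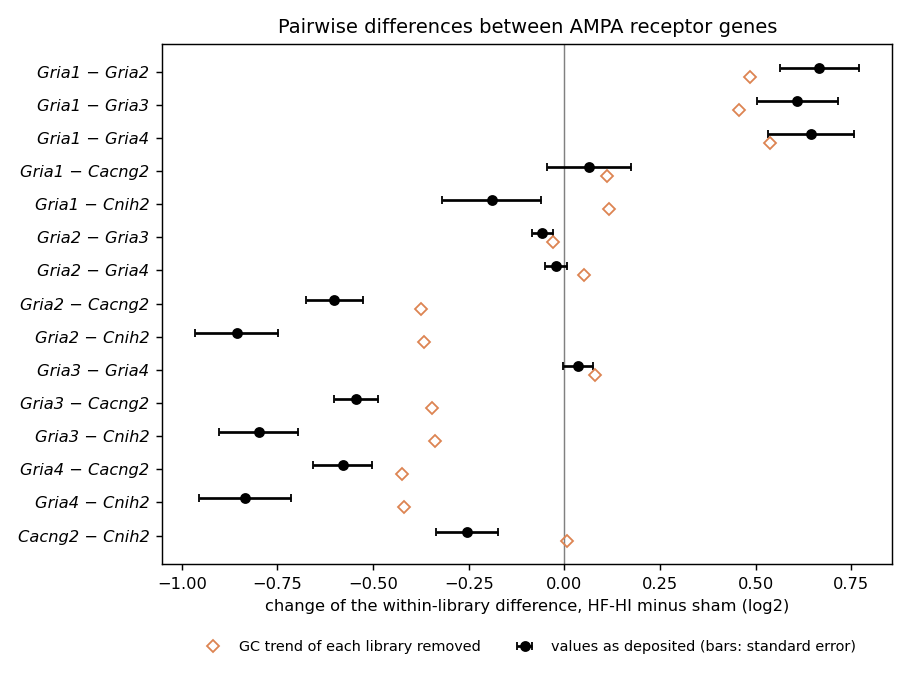
Change of the difference between 2 genes within a library, HF-HI minus sham (x axis, log2), for all 15 pairs. Black points with bars are the values as deposited with their standard error and open diamonds the values after the GC trend of each library was removed, and only Cacng2 minus Cnih2 passed the threshold before and not after that removal.

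The direction of the 6 genes followed their GC content. The exons of Gria2, Gria3 and Gria4, all lower, had 38.0%, 40.4% and 43.1% GC, and those of Gria1, Cacng2 and Cnih2, all higher, had 48.9%, 51.2% and 62.0%, where the median gene had 47.6%. All genes were ordered by GC content and split into 10 equal bins. Among the 554 genes in the bin of Gria2, the median log2 difference was -0.16 and 64.8% were lower by the same test. In the bin of Cnih2 the median was 0.26 and 65.5% were higher. Gria1 stood in a bin with a median of 0.024, where 33.8% were higher and 29.2% lower.

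After the GC trend of each library was removed, 5 of the 6 genes were past the threshold, where 60.2% of the 5539 genes with a GC content were. Gria1 was nearly as large as before at 0.41 (limma adjusted p = 2.10e-04). Cacng2 was 0.30 (limma adjusted p = 1.17e-05), Gria4 -0.13 (adjusted p = 2.59e-04) and Cnih2 0.29 (adjusted p = 3.02e-04), less than the 0.63 as deposited. Gria2 kept its sign but went from -0.23 to -0.077 (limma adjusted p = 0.0107), and Gria3 at -0.048 did not pass (adjusted p = 0.187). The sizes for Gria2, Gria3 and Cnih2 therefore depended on the GC step far more than that for Gria1. Gria1 has 48.9% GC, near the median gene at 47.6%, where the step removes little. Its small change was thus set by its GC content and does not show that it is free of other differences between the libraries. The part of the GC trend in these results was not tested beyond these values.

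**Figure D4:**
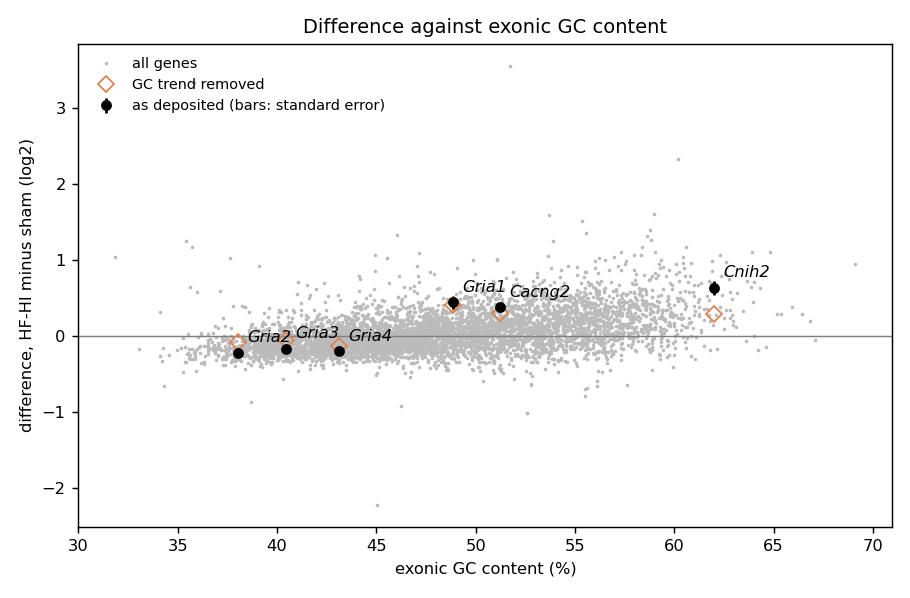
Log2 difference, HF-HI minus sham (y axis), against exonic GC content in percent (x axis), for all genes with a GC content (grey) and the 6 AMPA receptor genes (black, bars standard error; open diamonds after the GC trend of each library was removed). The genes below 0 had 38.0% to 43.1% GC and those above 0 had 48.9% to 62.0%.

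The covariation of pores and auxiliary genes was examined across libraries within each group, because the groups lie apart. Of 30 relations (15 pairs in 2 groups), none passed an adjusted p of 0.05 by permutation test of Pearson's r or of Spearman's rho, and 4 had an unadjusted p under 0.05 by each. Those under 0.05 by both were a negative relation of Gria2 with Cacng2 in sham (r = -0.748, permutation p = 0.0200, rho = -0.770, permutation p = 0.0131, n = 10) and of Gria4 with Cnih2 in sham (r = -0.691, permutation p = 0.0249, rho = -0.661, permutation p = 0.0431, n = 10), with adjusted permutation p = 0.286 for r in both. Without the 2 libraries farthest from the median, r was -0.758 for the first and -0.246 for the second, which thus rested on those libraries. With the GC trend removed r was -0.267 and -0.249. Gria1, the pore gene that moved with the auxiliary genes between groups, had r = -0.0164 with Cacng2 and 0.0643 with Cnih2 across sham libraries (permutation p = 0.965 and 0.864, rho = 0.0788 and 0.115, permutation p = 0.839 and 0.755). Across HF-HI libraries r was 0.344 and 0.397 (permutation p = 0.297 and 0.221, rho = 0.291 and 0.227, permutation p = 0.391 and 0.503), and -0.243 and -0.183 without the 2 farthest libraries.

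In HF-HI, Gria3 and Cacng2 had r = 0.571 (permutation p = 0.0572, adjusted 0.286; rho = 0.636, permutation p = 0.0407, n = 11) and 0.649 without the 2 farthest libraries. With the GC trend removed r was 0.858 (permutation p = 5.80e-04, adjusted 0.0174), the one relation of 30 to pass then. Across sham libraries the same pair had r = -0.116 (permutation p = 0.752, rho = -0.0303, permutation p = 0.948, n = 10). With the GC trend removed its r in sham was 0.344 (permutation p = 0.320).

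Properties of the libraries moved with some of the genes. Of 36 relations of the 6 genes with GC slope, relative depth and mt-Rnr1 within groups, 2 passed by Pearson's r. Across sham libraries the GC slope had r = -0.858 with Gria4 (permutation p = 0.00102, adjusted 0.0367; rho = -0.818, permutation p = 0.0057) and r = 0.858 with Cnih2 (permutation p = 0.00234, adjusted 0.0421; rho = 0.891, permutation p = 9e-04), and -0.672 and 0.724 without the 2 farthest libraries. The second also passed by Spearman's rho. For Gria1 the r with the GC slope was 0.357 in sham (permutation p = 0.311, rho = 0.455, permutation p = 0.194, n = 10) and 0.315 in HF-HI (permutation p = 0.342, rho = 0.191, permutation p = 0.579, n = 11). Its largest r was with mt-Rnr1 in sham, 0.532 (permutation p = 0.117, rho = 0.612, permutation p = 0.0681), beside 0.205 in HF-HI. In HF-HI no relation passed. The nearest were GC slope with Gria2 (r = -0.787) and Cacng2 (0.769) and mt-Rnr1 with Gria4 (0.768), each with adjusted permutation p = 0.0527. Without the 2 farthest libraries these were -0.299, 0.471 and 0.641.

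**Figure D5:**
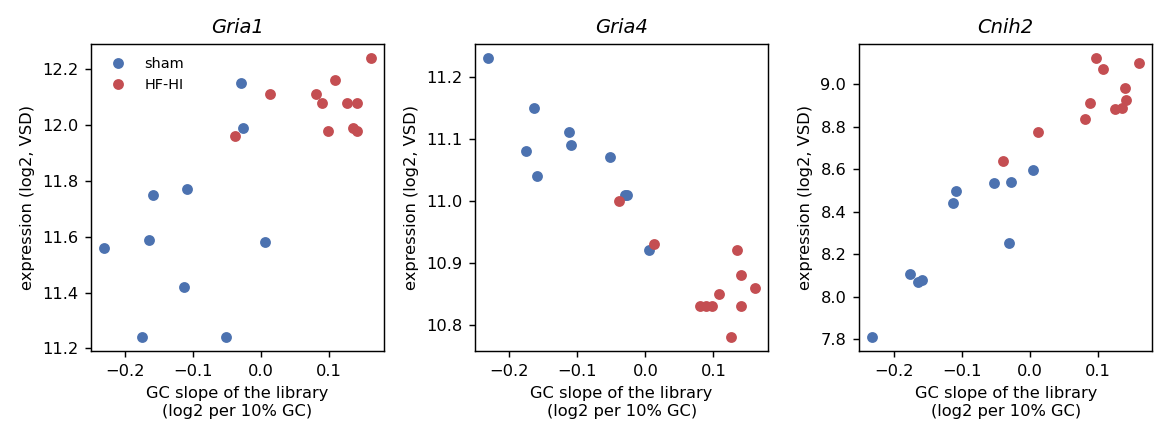
Expression of Gria1, Gria4 and Cnih2 (y axes, variance-stabilized log2 value) against the GC slope of each library (x axis, log2 per 10% GC), sham in blue and HF-HI in red. Across sham libraries r was -0.858 for Gria4 and 0.858 for Cnih2, and 0.357 for Gria1.

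The genes whose deviations from the group means were most like those of Gria1 over the 21 libraries were Tmem130 (r = 0.902), Chd3 (0.891), Mfn2 (0.888), Selenow (0.884) and Dpp6 (0.883). Mfn2 encodes a mitochondrial fusion protein, Chd3 a chromatin remodeller and Dpp6 an auxiliary subunit of potassium channels. All 5 were higher in HF-HI, by 0.26 to 0.66, where 32.6% of all genes were higher. The SD of Gria1 was 0.296 in sham and 0.0857 in HF-HI, so its r values rested mostly on the sham libraries. Those most like Gria2 were Vps13a (0.859), Tspyl5 (0.821), Chmp3 (0.792), Ubxn2b (0.789) and Arpp19 (0.788), of which Vps13a is a lipid transfer protein and Chmp3 a component of the membrane-remodelling ESCRT machinery. Of the 5 genes most like Gria2, 4 were lower, by -0.27 to -0.17, where 33.6% of all genes were lower. Ubxn2b had a difference of -0.073 that did not pass. The r values are the highest out of all genes in the table and are given as a description only.

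Other genes of AMPA receptor assembly, traffic and regulation were taken from a list of 51 genes, of which 36 were in the table. By limma 21 were higher and 10 lower and 5 did not pass, beside 32.6% higher and 33.6% lower of all genes, with a median log2 difference of 0.21 where all genes had -0.0086. With the GC trend removed 14 were higher and 5 lower, 19 of 36 in all beside 60.2% of all genes, with a median of 0.086, and the median GC content of the 36 genes was 52.4%.

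Proteins that assemble the receptor in the endoplasmic reticulum were mixed, 2 of 7 higher and 3 lower. Cpt1c, which associates with GluA1 there, had a log2 difference of 0.49 (standard error 0.0733, limma adjusted p = 4.85e-06). Porcn, an acyltransferase that binds AMPA receptors, had one of 0.23 (standard error 0.0503, limma adjusted p = 3.48e-04). After removal of the GC trend Cpt1c was 0.32 and Porcn was 0.068 and no longer past the threshold (limma adjusted p = 0.226), and 1 gene of this role was higher and 2 lower. The cornichon Cnih3 went opposite to Cnih2, from 9.56 ± 0.0915 to 9.33 ± 0.208 (SD, n = 10 sham and 11 HF-HI), a difference of -0.23 (standard error 0.0668, limma adjusted p = 0.0043). It was -0.36 with the GC trend removed. Cnih3 was picked out after its values were seen.

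Among other auxiliary or associated proteins 5 of 7 were higher and 2 lower, the largest differences being 0.55 for Prrt2, a presynaptic and AMPA-receptor-associated membrane protein, and 0.34 for the secreted olfactomedin Olfm1 (limma adjusted p = 1.72e-05 and 9.95e-05). Once the trend was removed 2 were higher and 2 lower, Prrt2 being 0.36 and Olfm1 0.14, which did not pass (limma adjusted p = 0.0685). Of 4 extracellular clustering proteins 2 were higher and 1 lower, with 0.54 for the neuronal pentraxin receptor Nptxr and 0.22 for the pentraxin Nptx1 (limma adjusted p = 1.84e-04 and 0.00381). Without the GC trend 1 was higher and none lower, Nptxr being 0.27 and Nptx1 0.067, which did not pass (limma adjusted p = 0.256).

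Scaffold and traffic genes were the most numerous, with 7 of 12 higher and 3 lower. Arc, an activity-induced gene whose protein promotes removal of AMPA receptors from the surface, rose from 9.67 ± 0.532 (SD, n = 10) to 11.28 ± 0.326 (SD, n = 11), a difference of 1.604 (standard error 0.172, limma adjusted p = 5.46e-08) without overlap of the groups. Dlg4, which encodes PSD-95, rose by 0.48 (standard error 0.0740, limma adjusted p = 7.18e-06). Arc was 1.34 and Dlg4 0.40 with the GC trend removed, and 7 genes of this role were higher and 1 lower. Of 6 editing and phosphorylation genes 5 were higher and 1 lower, with 0.54 for the catalytic subunit of protein kinase A, Prkaca, and 0.35 for the calmodulin kinase Camk2a (limma adjusted p = 3.00e-07 and 7.62e-06). Without that trend 3 were higher and none lower, Prkaca being 0.38 and Camk2a 0.25.

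The tissue label was set against cell type markers. In bulk cortex, fewer cells of a type and less RNA per cell cannot be told apart. The marker counts stand beside 32.6% higher and 33.6% lower of all genes. Of 6 excitatory neuron markers 5 were higher and none lower, with a median difference of 0.72, and their summed level lay between 14.27 and 14.62 in sham and between 14.89 and 15.25 in HF-HI without overlap. Gria1, Cacng2 and Cnih2 thus rose and Gria2, Gria3 and Gria4 fell in libraries where the transporter Slc17a7 was higher by 0.89 (limma adjusted p = 8.88e-11). The part of these markers in the results was not tested. Of the 6 inhibitory neuron markers measured, 2 were higher and 1 lower, with a median of -0.039 and summed levels of 13.25 to 13.48 in sham and 13.17 to 13.52 in HF-HI. The higher markers were Slc32a1 by 0.64 and Sst by 0.63 (limma adjusted p = 1.50e-06 and 2.18e-06). The lower marker was Erbb4, with a difference of -0.11 (limma adjusted p = 0.00863). Gad1, Gad2 and Pvalb did not pass. Pvalb, which marks the fast-spiking cells that express Gria4, had a difference of -0.069 (limma adjusted p = 0.369).

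The other marker lists gave 4 higher and 1 lower of 6 pan-neuronal genes and 3 higher and 1 lower of 7 astrocyte genes. Of 6 oligodendrocyte genes 1 was higher and none lower. Among all genes 32.6% were higher and 33.6% lower. Of the 3 oligodendrocyte precursor, 2 microglial and 2 endothelial markers measured, 1 was higher and 1 lower in each list. Of tissue next to the cortex, 1 of 6 striatal markers was lower (Drd1, -0.36) and none higher, their summed level running from 13.61 to 14.04 in sham and from 12.94 to 14.17 in HF-HI. Of 2 hippocampal markers 1 was higher (Wfs1, 0.46), and the choroid plexus marker Ttr did not pass and ran from 6.16 to 11.51 in sham and from 6.86 to 13.35 in HF-HI. With the GC trend removed no hippocampal marker passed (Wfs1 0.23, limma adjusted p = 0.0700), 2 striatal and 2 oligodendrocyte markers were lower, and all 6 excitatory neuron markers were higher. Pan-neuronal counts were then the same, 2 inhibitory markers were higher and none lower, and 2 astrocyte markers were higher and 2 lower. Of all genes with a GC content, 60.2% passed with the trend removed. The part of these tissues in the results was not tested.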

How the data were processed

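Cortical RNA-seq libraries, 10 sham and 11 HF-HI, were analysed, grouped by the sample labels. After ribosomal RNA removal, the authors prepared stranded libraries of total RNA, aligned reads to mm10 with STAR, counted per transcript with eXpress, normalized with DESeq2 and removed outliers by Cook's distance. They deposited variance-stabilized log2 values per Ensembl gene. The versions of STAR and eXpress and the gene annotation are not given in the sources used here. Total depth is unknown, and relative depth came from the spacing of the values.

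HF-HI was set against sham for every gene by limma (version 3.58.1, under R 4.3.3), using lmFit and eBayes with a trend. Tests were two-sided, with Benjamini-Hochberg adjustment over all 5544 genes and a threshold of 0.05, and the fit was tested on simulated data. Pairs and correlations used permutation tests with 100000 resamples in Python 3.11.15 (numpy 2.4.6, scipy 1.17.1, pandas 2.3.3). Figures used matplotlib 3.10.9. Symbols, exon lengths and GC content came from GENCODE on GRCm38, the same assembly as mm10. GC trends were removed per library by lowess (span 0.3) on deviations from the mean of all libraries. The GC slope is the slope of those deviations.

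The members and lists were chosen with earlier results of these data known. Named genes were the members, the 2 largest differences past the threshold in each role of the pathway list, and the 5 genes most alike Gria1 and Gria2. Cnih3 and the marker genes named singly were picked after their values were seen. Pairs numbered 15, because only 6 members were in the table. Alternatives were library centring, quantile normalization, GC removal, the replicate number as a block, both together, eBayes without trend, a filter on low values, depth as a covariate, a threshold of 0.1, and each library left out.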

Additional observations from a re-analysis of the deposited data

How the results depend on the processing

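Of 348 recomputed values, 333 kept their direction and side of the threshold (counts within 1.5 times). Some of these could not change. Library centring cancels in a difference within a library, and the filter on low values leaves the difference of each gene kept as it was. All 6 members passed with each library left out, with Gria1 between 0.397 and 0.498, Gria2 between -0.237 and -0.216 and Gria1 minus Gria2 between 0.618 and 0.730. Removing the GC trend took the other AMPA receptor genes past the threshold from 31 to 19, and to 18 with the replicate block, and gave 1 within-group correlation past it against 0. It turned Gria1 minus Cnih2 to 0.118, Gria2 minus Gria4 to 0.051 and Cacng2 minus Cnih2 to 0.0064 (0.105, 0.057 and 0.003 with the block), none past the threshold. With both, 4 members passed, Gria2 having -0.074 (limma adjusted p = 0.0512) and Gria3 -0.044 (limma adjusted p = 0.215). Quantile normalization brought Gria2 minus Gria3 to -0.10 and Gria2 minus Gria4 to -0.083, past the threshold; the cause was not tested. The filter on low values drops Cacng2 and Cnih2 by construction. Replicate numbers do not pair the libraries (r from -0.310 to 0.364 over 10 pairs, 4 of them over 0.1, no library closest to its own number), and the replicate block alone gave 6 members and 3498 genes past the threshold, with Gria2 minus Gria3 past it at -0.061. Without the 3 libraries of relative depth under 0.6, an alternative chosen after seeing the data, all 6 members passed and Gria1 minus Gria2 was 0.69.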
